A study of Mus musculus with 12 samples.

Results

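The genes described here are 10 mouse genes of mitophagy and of the mitochondrial response to low oxygen, chosen by name from the 54232 genes counted in the study. They are the mitophagy receptor genes Bnip3, Bnip3l and Fundc1, the hypoxia-responsive mitochondrial genes Higd1a, Fam162a and Ndufa4l2, the cytochrome c oxidase subunit 4 isoforms Cox4i1 and Cox4i2, the mitochondrial protease gene Lonp1 and the MAX partner gene Mxi1. RNA was sequenced from MMTV-NIC mouse breast cancer cells in 4 groups of 3 libraries: AXL KO cells in hypoxia (1% oxygen), AXL WT cells in hypoxia, AXL KO cells in normoxia (21% oxygen) and AXL WT cells in normoxia. In MMTV-NIC tumours a mouse mammary tumour virus promoter drives an activated Neu (ErbB2) oncogene together with Cre recombinase in mammary epithelium, so all 4 groups share that transgene. AXL is a receptor tyrosine kinase, and the labels give neither the way it was knocked out nor the number of clones. The labels do not give the origin of the replicates (separate cultures or one), so every p-value measures the spread between these libraries, which may be technical.

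Mitophagy is the selective removal of mitochondria by autophagy. Receptor proteins in the outer mitochondrial membrane carry a short motif that binds LC3 or GABARAP proteins on the growing autophagosome, while a separate route marks damaged mitochondria with ubiquitin. In low oxygen the transcription factor HIF-1 is known to raise BNIP3 and BNIP3L, to switch cytochrome c oxidase subunit 4 towards its second isoform while the LON protease degrades the first, and to raise MXI1, which competes with MYC for the partner MAX. These genes therefore mark a known shift of hypoxic cells towards fewer mitochondria and a changed respiratory chain.

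Axl RNA checked the genotype labels. It was counted 86, 105 and 78 times in AXL KO hypoxia, against 23077, 19395 and 28495 times in AXL WT hypoxia. In normoxia it was counted 164, 189 and 200 times in AXL KO, against 51682, 47960 and 57291 times in AXL WT. Groups were taken from the sample titles, since the genotype tag of 6 libraries contradicts its title. Of 8 hypoxia marker genes (Car9, Vegfa, Slc2a1, Pdk1, Egln3, Ankrd37, Ndrg1, Adm), 8 were higher in AXL KO hypoxia than in AXL KO normoxia and 7 in AXL WT hypoxia than in AXL WT normoxia. Between the genotypes, 7 of these 8 were higher in AXL KO in normoxia and 6 in hypoxia, against 29.7% and 29.9% of all genes tested. Gene counts totalled 45297267 to 58775422 per library. The AXL WT hypoxia libraries spread widely, since the biological coefficient of variation was 0.0737 in AXL KO hypoxia, 0.40 in AXL WT hypoxia, 0.0895 in AXL KO normoxia and 0.0566 in AXL WT normoxia. The fit shared 1 estimate of spread per gene over all 4 groups. An adjusted p of a comparison without AXL WT hypoxia therefore also carries the spread of that group. In a comparison with AXL WT hypoxia, its spread is averaged with that of the tighter groups. Replicate 1 of AXL WT hypoxia lay apart from its replicates 2 and 3, and all 3 lay outside the range of the other groups: the summed level of 5 mammary epithelial and tumour markers (Erbb2, Epcam, Krt8, Krt18, Cdh1) was 2278 to 2376 CPM in AXL KO hypoxia, against 953 and 1222 CPM in these replicates of AXL WT hypoxia and 4487 CPM in its replicate 1. For normoxia that sum was 2159 to 2446 CPM in AXL KO, against 3112 to 3202 CPM in AXL WT. Of these 5 markers, 2 were called lower and 0 higher in AXL KO at each oxygen level. Because of the spread in AXL WT hypoxia, values without its replicates 2 and 3 are given beside the results that rest on them. For some genes values without its replicate 1 are given as well. With replicates 2 and 3 left out AXL WT hypoxia is a single library, which is then assumed to vary like the other groups, so the p-values of those fits are no test of that group's own spread. Summed levels of 6 leukocyte markers were 49.4 to 55.7 CPM in AXL KO hypoxia, against 6.48 to 10.004 CPM in AXL WT hypoxia. For normoxia they were 59.6 to 85.2 CPM in AXL KO, against 11.1 to 12.6 CPM in AXL WT. Nearly all of that sum was Cd68, while the defining markers Ptprc and Cd3e were at or near 0 in every group. Of 3 leukocyte markers tested, 1 was called higher and 1 lower in AXL KO at each oxygen level. The 5 fibroblast markers summed to 50.5 to 55.6 CPM in AXL KO hypoxia, against 54.8 to 86.2 CPM in AXL WT hypoxia, with Lum and Thy1 near 0. The single markers differed in both directions: Pdgfra averaged 9.38 CPM in AXL KO hypoxia, against 56.4 CPM in AXL WT hypoxia, Col1a1 40.6 CPM, against 16.0 CPM, and Dcn 3.12 CPM, against 0.732 CPM. The fibroblast sums in normoxia were 66.4 to 73.7 CPM in AXL KO, against 50.2 to 56.0 CPM in AXL WT. The 4 endothelial markers summed to 15.5 to 17.4 CPM in AXL KO hypoxia, against 0.530 to 1.48 CPM in AXL WT hypoxia, the sum in AXL KO being nearly all Kdr, with Cdh5 and Tek near 0. Their normoxia sums were 3.14 to 4.35 CPM in AXL KO, against 0.335 to 0.599 CPM in AXL WT. Single endothelial markers went both ways: of 3 tested, 1 was called higher and 2 lower in AXL KO in hypoxia, and 1 higher and 1 lower in normoxia. The 3 adipocyte markers summed to 4.55 to 4.61 CPM in AXL KO hypoxia, against 8.53 to 27.9 CPM in AXL WT hypoxia, and in normoxia to 8.65 to 13.6 CPM in AXL KO, against 33.8 to 41.8 CPM in AXL WT. The part of these marker differences in the results below was not tested. In bulk RNA, fewer cells of a type and less RNA per cell cannot be told apart.

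HIF binds DNA at a short core, so the promoters of the members were searched for ACGTG and GCGTG on both strands. CACGTG is a palindrome and counts once on each strand. RefSeq (GRCm38.p6) gave a promoter for 6 of the 10 members, each covering 250 bases before and 50 bases after an annotated start. Shown, for 4 members, are the bases from 120 to 31 before the start, 5′ to 3′ on the strand of the gene, with every match of either motif in capitals. Only windows that held a match are printed, so the printed set was chosen by its matches.
Bnip3, chr7:138909537-138909626, minus strand: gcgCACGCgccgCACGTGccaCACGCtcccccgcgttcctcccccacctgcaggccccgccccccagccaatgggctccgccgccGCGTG
Fam162a, chr16:36071592-36071681, minus strand: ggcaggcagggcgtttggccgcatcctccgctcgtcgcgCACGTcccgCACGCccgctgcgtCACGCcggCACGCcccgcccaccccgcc
Lonp1, chr17:56626934-56627023, minus strand: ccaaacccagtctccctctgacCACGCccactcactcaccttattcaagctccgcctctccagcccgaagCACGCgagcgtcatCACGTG
Mxi1 (the second of 3 starts), chr19:53329293-53329382, plus strand: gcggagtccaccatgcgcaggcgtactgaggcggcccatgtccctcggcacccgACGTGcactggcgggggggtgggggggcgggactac
Matches numbered 5 in this window of Bnip3, 4 in Fam162a, 4 in Lonp1 and 1 at this start of Mxi1, while the windows of the other Mxi1 starts held 0. The Higd1a window held 2 and is not printed, since all 90 of its bases lie in annotated exons. Among all 32851 promoters of the table, 19.5% held either motif in the same window and 7.02% held ACGTG. Over the whole 300 bases the shares were 43.8% and 19.6%. The Fundc1 promoter held neither motif in its 300 bases. Such a match describes the letters alone and is not evidence of binding.

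Bnip3, which encodes a BH3-only mitophagy receptor of the outer membrane (chromosome 7, 138890836 to 138909519, GRCm38, minus strand, whose promoter is printed above), was higher in AXL KO cells at both oxygen levels and higher in hypoxia in both genotypes. Levels of members are given as FPKM, counts per kilobase of annotated exon and per library size after TMM scaling (trimmed mean of M values). Bnip3 stood at 355, 353 and 350 FPKM in AXL KO hypoxia, against 121, 101 and 135 FPKM in AXL WT hypoxia. At 21% oxygen it stood at 82.8, 108 and 131 FPKM in AXL KO, against 19.5, 19.9 and 22.5 FPKM in AXL WT. The genotypes did not overlap at either oxygen level, while AXL KO in normoxia overlapped AXL WT in hypoxia. The log2 fold change of AXL KO over AXL WT was 1.57 ± 0.16 in hypoxia (SE, n = 3 libraries each, edgeR quasi-likelihood test, Benjamini-Hochberg adjusted p = 4.84e-06), and every adjusted p given for a gene below comes from the same fit to 16767 genes in all 12 libraries. In normoxia it was 2.38 ± 0.16 (adjusted p = 1.58e-07). Hypoxia raised Bnip3 by 1.71 ± 0.16 in AXL KO (adjusted p = 4.18e-06) and by 2.53 ± 0.16 in AXL WT (adjusted p = 2.73e-07). The response of AXL KO was smaller than that of AXL WT by a log2 difference of −0.81 ± 0.22 (adjusted p = 0.0154).

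Bnip3l (also called Nix; chromosome 14, 66985239 to 67008877, minus strand), a related receptor needed for the clearance of mitochondria from maturing red cells, followed the same order with smaller differences. It stood at 173, 168 and 173 FPKM in AXL KO hypoxia, against 104, 118 and 96.2 FPKM in AXL WT hypoxia. Normoxic levels were 61.3, 70.9 and 79.1 FPKM in AXL KO, against 22.8, 25.6 and 25.3 FPKM in AXL WT. The groups did not overlap in any of the 4 comparisons. The log2 fold change of AXL KO over AXL WT was 0.69 ± 0.11 in hypoxia (adjusted p = 0.000184) and 1.52 ± 0.11 in normoxia (adjusted p = 3.04e-07). Hypoxia raised Bnip3l by 1.28 ± 0.11 in AXL KO (adjusted p = 2.86e-06) and by 2.11 ± 0.11 in AXL WT (adjusted p = 8.54e-08), and these responses differed by −0.83 ± 0.15 (adjusted p = 0.00225). The processed pseudogene Bnip3l-ps, which resembles it in sequence, held 20 to 137 counts per library, against 4984 to 30283 for Bnip3l.

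Fundc1 (X chromosome, 17556564 to 17572325, minus strand), whose protein is a receptor for hypoxia-induced mitophagy controlled by its phosphorylation, differed between the genotypes by more than any other member and little with oxygen. It stood at 27.9, 25.4 and 29.7 FPKM in AXL KO hypoxia, against 0.160, 0.219 and 0.380 FPKM in AXL WT hypoxia. Normoxic levels were 21.7, 21.8 and 23.1 FPKM in AXL KO, against 0.397, 0.554 and 0.423 FPKM in AXL WT. The AXL WT values rest on 17, 22 and 43 counts in hypoxia and 53, 70 and 57 in normoxia, so the gene was barely detected in AXL WT cells. The log2 fold change of AXL KO over AXL WT was 6.76 ± 0.26 in hypoxia (adjusted p = 1.78e-09), a 108-fold difference, and 5.60 ± 0.24 in normoxia (adjusted p = 3.77e-09), a 48.5-fold difference. Without AXL WT hypoxia replicates 2 and 3 the hypoxia value was 7.42.

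The response of Fundc1 to oxygen was small beside its difference between the genotypes. In AXL KO the log2 difference of hypoxia over normoxia was 0.32 ± 0.19 (adjusted p = 0.168), with groups that did not overlap, and it was called in the fit to those 6 libraries alone (adjusted p = 0.00181). In AXL WT Fundc1 was lower in hypoxia by −0.84 ± 0.25 (adjusted p = 0.0125), a call that was lost without AXL WT normoxia replicate 2 (adjusted p = 0.0669), in the fit to those 6 libraries alone (adjusted p = 0.135) and with a voom weight per group (adjusted p = 0.262). The value was −1.50 without AXL WT hypoxia replicates 2 and 3. The responses differed by 1.16 ± 0.31 (adjusted p = 0.0170), a call also lost without AXL WT normoxia replicate 2 (adjusted p = 0.0716) and with a voom weight per group (adjusted p = 0.168). They differed by 1.82 without AXL WT hypoxia replicates 2 and 3.

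Of the protein-coding genes annotated within 1 Mb of Fundc1, examined after its values were seen, Kdm6a and Maoa had more than a few counts in every library. Kdm6a, which encodes a histone H3 lysine 27 demethylase, averaged 64.2 CPM in AXL KO hypoxia, against 25.0 CPM in AXL WT hypoxia. The normoxia means were 75.4 CPM in AXL KO, against 18.6 CPM in AXL WT. Its log2 fold changes of AXL KO over AXL WT were 1.36 in hypoxia (adjusted p = 1.89e-05) and 2.02 in normoxia (adjusted p = 6.96e-07). Maoa, which encodes monoamine oxidase A, did not follow Fundc1: it averaged 30.2 CPM in AXL KO hypoxia, against 27.1 CPM in AXL WT hypoxia (0.16, adjusted p = 0.163), and 49.99 CPM in AXL KO normoxia, against 64.0 CPM in AXL WT normoxia (−0.36, adjusted p = 0.00542).

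**Figure D1:**
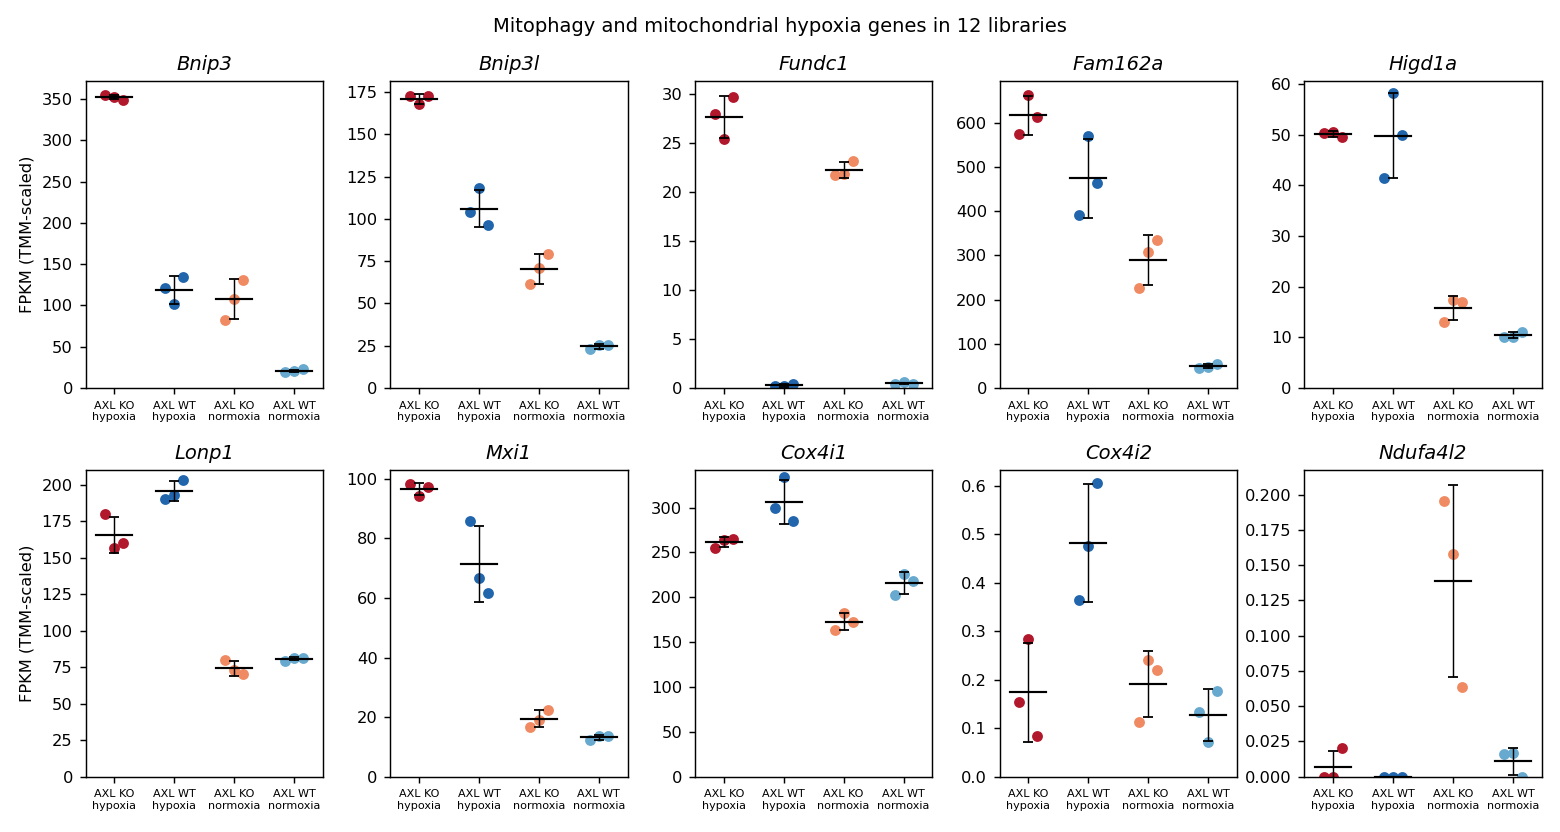
FPKM (TMM-scaled, linear axes from 0, a separate axis per gene) of the 10 genes in the 12 libraries, one point per library, with lines at the mean and bars of 1 SD of 3 libraries. Fundc1 stands at 21.7 to 29.7 FPKM in AXL KO and below 1 FPKM in AXL WT, Bnip3 and Fam162a are lowest in AXL WT normoxia, and Cox4i2 and Ndufa4l2 stay below 1 FPKM throughout.

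Summed over Bnip3, Bnip3l and Fundc1, receptor RNA reached 551 ± 4.84 FPKM in AXL KO hypoxia, against 225 ± 5.80 FPKM in AXL WT hypoxia (SD, n = 3 libraries each). In normoxia the sum was 200 ± 33.9 FPKM in AXL KO, against 45.6 ± 2.76 FPKM in AXL WT. The makeup of the sum differed as well. Bnip3 supplied 64.0% in AXL KO hypoxia, 52.7% in AXL WT hypoxia, 53.3% in AXL KO normoxia and 45.2% in AXL WT normoxia. Fundc1 supplied 5.02%, 0.112%, 11.3% and 1.00% in the same order of groups, and Bnip3l the rest.

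The ratio of Bnip3l to Bnip3 within a library, per kilobase, does not depend on how libraries are scaled. It was 0.485 ± 0.00964 in AXL KO hypoxia, against 0.913 ± 0.230 in AXL WT hypoxia, and 0.666 ± 0.0698 in AXL KO normoxia, against 1.19 ± 0.0863 in AXL WT normoxia (SD, n = 3 libraries each). Per kilobase, Bnip3 thus exceeded Bnip3l in every AXL KO library, and Bnip3l exceeded Bnip3 in every AXL WT normoxia library. That order depends on the exon lengths used. In counts not divided by length, Bnip3l exceeded Bnip3 in AXL KO normoxia too (13249, 15862 and 17603, against 10503, 14170 and 17168). AXL KO differed from AXL WT by a log2 ratio of −0.88 in hypoxia and −0.84 in normoxia, each without overlap and each with p = 0.1 in a two-sided exact permutation test, the smallest p that 3 against 3 libraries allow. Hypoxia changed the log2 ratio by −0.45 in AXL KO (p = 0.1, exact) and by −0.41 in AXL WT (p = 0.3, exact). The value in AXL WT was −0.25 without its hypoxia replicate 3 (p = 0.3, exact) and −0.60 without its hypoxia replicate 2 (p = 0.1, exact).

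Fam162a (chromosome 16, 36043761 to 36071594, minus strand), whose protein is a mitochondrial HIF-responsive factor linked to hypoxic cell death in human cells, had the highest level per kilobase of all members in 3 of the 4 groups. It stood at 576, 664 and 614 FPKM in AXL KO hypoxia, against 392, 569 and 463 FPKM in AXL WT hypoxia. At 21% oxygen it stood at 226, 307 and 334 FPKM in AXL KO, against 46.0, 48.1 and 54.2 FPKM in AXL WT. AXL KO in normoxia was already 5.84-fold above AXL WT (log2 fold change 2.55 ± 0.17, adjusted p = 1.39e-07). In hypoxia the genotypes lay closer, with groups that just failed to overlap and a log2 difference of 0.38 ± 0.16 (adjusted p = 0.0548). Leaving out replicate 2 of AXL WT hypoxia gave 0.53 (adjusted p = 0.0111), leaving out replicates 2 and 3 gave 0.65 (adjusted p = 0.00772), and leaving out replicate 1 gave 0.27 (adjusted p = 0.120). Hypoxia raised Fam162a by 1.10 ± 0.16 in AXL KO (adjusted p = 0.000136) and by 3.26 ± 0.17 in AXL WT (adjusted p = 8.37e-08). The difference between these responses, −2.17 ± 0.23 (adjusted p = 5.96e-05), had the smallest adjusted p among the members.

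Higd1a (chromosome 9, 121848563 to 121858362, minus strand) encodes an inner-membrane protein that binds respiratory chain complexes and is raised by hypoxia. It stood at 50.3, 50.5 and 49.5 FPKM in AXL KO hypoxia, against 41.4, 58.1 and 49.8 FPKM in AXL WT hypoxia. In normoxia it stood at 13.0, 17.4 and 16.9 FPKM in AXL KO, against 10.01, 10.03 and 11.1 FPKM in AXL WT. Both genotypes thus had about the same mean in hypoxia, the AXL WT libraries lying on both sides of the AXL KO ones. The log2 difference in hypoxia was 0.01 ± 0.13 (adjusted p = 0.959), with a 95% interval from −0.29 to 0.30, and its sign depended on the scaling. It was 0.27 without AXL WT hypoxia replicates 2 and 3, and −0.10 without its replicate 1. In normoxia Higd1a was higher in AXL KO by 0.60 ± 0.14 (adjusted p = 0.00225). Hypoxia raised it by 1.67 ± 0.14 in AXL KO (adjusted p = 2.20e-06) and by 2.26 ± 0.14 in AXL WT (adjusted p = 2.47e-07). These responses differed by −0.59 ± 0.19 (adjusted p = 0.0365), a call that was lost in 13 of 21 alternative analyses. Leaving out replicates 2 and 3 of AXL WT hypoxia gave −0.34 (adjusted p = 0.0908).

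Ndufa4l2 (chromosome 10, 127514967 to 127517154, plus strand), a HIF target whose protein lowers complex I activity, was close to undetected and was not tested. It was counted 0, 0 and 1 times in AXL KO hypoxia and 0 times in each AXL WT hypoxia library. In normoxia it was counted 12, 10 and 4 times in AXL KO, against 1, 1 and 0 times in AXL WT. The few reads therefore lay in AXL KO normoxia. The summed counts of 26 in AXL KO normoxia and 2 in AXL WT normoxia gave a ratio of 12.7 per library size, with a 95% counting interval from 3.18 to 110. The sum of 1 count in AXL KO hypoxia was 19.9-fold lower than in AXL KO normoxia, with an interval from 3.27 to 816. Both ratios rest on a total of 1 or 2 counts, their intervals cover counting error only, and no fold is given in the comparisons where both totals were 3 or fewer.

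Lonp1 (chromosome 17, 56614301 to 56626903, minus strand), which encodes the ATP-dependent LON protease of the mitochondrial matrix and whose promoter is printed above, responded to oxygen and differed little between the genotypes. It stood at 180, 157 and 160 FPKM in AXL KO hypoxia, against 191, 193 and 204 FPKM in AXL WT hypoxia. Normoxic levels were 79.8, 72.8 and 70.1 FPKM in AXL KO, against 79.5, 81.1 and 81.4 FPKM in AXL WT. Every hypoxic library lay above every normoxic one. Hypoxia raised Lonp1 by 1.16 ± 0.09 in AXL KO (adjusted p = 9.59e-07) and by 1.28 ± 0.09 in AXL WT (adjusted p = 3.62e-07), with a difference of −0.12 ± 0.12 between the responses (adjusted p = 0.483, 95% interval −0.38 to 0.14). AXL KO was lower than AXL WT by −0.24 ± 0.08 in hypoxia (adjusted p = 0.0251). That call was lost in 7 of 22 alternative analyses. Among these were leaving out AXL KO hypoxia replicate 2 (adjusted p = 0.111) or 3 (adjusted p = 0.0977) or AXL WT hypoxia replicate 3 (adjusted p = 0.0604). It was also lost without a filter (adjusted p = 0.143), in the 6 libraries compared (adjusted p = 0.0693) and with a voom weight per group (adjusted p = 0.166). Without AXL WT hypoxia replicates 2 and 3 the value was −0.21. In normoxia the difference was −0.12 ± 0.08 (adjusted p = 0.239).

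Cox4i1 (chromosome 8, 120668222 to 120674207, plus strand) encodes the general isoform of cytochrome c oxidase subunit 4. It stood at 255, 264 and 266 FPKM in AXL KO hypoxia, against 299, 334 and 285 FPKM in AXL WT hypoxia. In normoxia it stood at 164, 183 and 172 FPKM in AXL KO, against 203, 226 and 218 FPKM in AXL WT. AXL KO lay below AXL WT without overlap at both oxygen levels, by −0.23 ± 0.09 in hypoxia (adjusted p = 0.0363) and −0.32 ± 0.09 in normoxia (adjusted p = 0.00706). The call in hypoxia was lost in 10 of 22 alternative analyses, 6 of which left out 1 library each: AXL KO hypoxia replicate 1, 2 or 3, AXL WT hypoxia replicate 2, or AXL KO normoxia replicate 2 or 3, with adjusted p from 0.0523 to 0.116. Without AXL WT hypoxia replicates 2 and 3 the adjusted p was 0.0582. The call in normoxia was lost without AXL WT normoxia replicate 2 (adjusted p = 0.0677). Hypoxia raised Cox4i1 by 0.60 ± 0.09 in AXL KO (adjusted p = 0.000123) and by 0.51 ± 0.09 in AXL WT (adjusted p = 0.000368), and the responses differed by 0.09 ± 0.12 (adjusted p = 0.620). Cox4i1 lies within a longer annotated gene of the same strand, Gm20388, which had 0 counts in every library, so the counting may have left out reads shared by both.

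Cox4i2 (chromosome 2, 152754173 to 152765037, plus strand), the isoform that HIF-1 raises in human and mouse cells, was near the limit of detection. It was counted 5, 10 and 3 times in AXL KO hypoxia, against 13, 16 and 23 times in AXL WT hypoxia. In normoxia it was counted 5, 11 and 10 times in AXL KO, against 6, 3 and 8 times in AXL WT. It passed the low-count filter only through AXL WT hypoxia, the group where it was highest, so its calls there give no support. AXL KO was lower in hypoxia by −1.46 ± 0.47 (adjusted p = 0.0177), a call lost without AXL KO hypoxia replicate 1 or 3 or without AXL WT hypoxia replicate 3 (adjusted p from 0.0620 to 0.0864). Without AXL WT hypoxia replicates 2 and 3 the adjusted p was 0.176. AXL WT hypoxia was higher than AXL WT normoxia by 1.89 ± 0.47 (adjusted p = 0.00467), and by 1.49 without AXL WT hypoxia replicates 2 and 3 (adjusted p = 0.0563). The differences were −0.14 ± 0.51 for hypoxia in AXL KO (adjusted p = 0.837) and 0.57 ± 0.51 between the genotypes in normoxia (adjusted p = 0.351). The responses differed by −2.03 ± 0.69 (adjusted p = 0.0469), a call lost in 15 of 20 alternative analyses.

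Per kilobase, Cox4i2 made up 0.0720% of subunit 4 RNA in AXL KO hypoxia, 0.163% in AXL WT hypoxia, 0.116% in AXL KO normoxia and 0.0648% in AXL WT normoxia. Cox4i1 therefore supplied nearly all subunit 4 RNA in every library. The log2 ratio of Cox4i2 to Cox4i1 differed by −1.29 between AXL KO and AXL WT in hypoxia and by 1.39 between hypoxia and normoxia in AXL WT, each with p = 0.1 in a two-sided exact permutation test. It differed by 0.88 between AXL KO and AXL WT in normoxia and by −0.78 between hypoxia and normoxia in AXL KO, each with p = 0.2 (exact). These ratios rest on few counts and moved with the value added to them. With 10 added to each count in place of 0.5 they were −0.50 (p = 0.2, exact), 0.60 (p = 0.1, exact), 0.54 (p = 0.1, exact) and −0.44 (p = 0.2, exact) in the same order. The first had p = 0.2 (exact) without any 1 of the AXL WT hypoxia libraries. The third was 0.51 without AXL WT normoxia replicate 2. The last was −0.37 without AXL KO hypoxia replicate 3 and −1.18 without AXL KO hypoxia replicate 2.

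Mxi1 (chromosome 19, 53310506 to 53375810, plus strand), which encodes a MAX partner that opposes MYC and one start of which is printed above, rose strongly in hypoxia in both genotypes. It stood at 98.4, 94.3 and 97.3 FPKM in AXL KO hypoxia, against 85.9, 66.6 and 61.7 FPKM in AXL WT hypoxia. In normoxia it stood at 16.7, 19.1 and 22.4 FPKM in AXL KO, against 12.2, 13.5 and 13.7 FPKM in AXL WT. AXL KO libraries lay above AXL WT libraries at each oxygen level, and all hypoxic libraries lay far above the normoxic ones. Hypoxia raised Mxi1 by 2.32 ± 0.14 in AXL KO (adjusted p = 2.62e-07) and by 2.44 ± 0.14 in AXL WT (adjusted p = 1.37e-07), with a difference of −0.13 ± 0.19 (adjusted p = 0.663). Leaving out replicates 2 and 3 of AXL WT hypoxia gave −0.40 (adjusted p = 0.0397), and leaving out its replicate 1 gave 0.037 (adjusted p = 0.877). Mxi1 was higher in AXL KO than in AXL WT by 0.56 ± 0.13 in normoxia (adjusted p = 0.00326) and by 0.44 ± 0.13 in hypoxia (adjusted p = 0.0132). Leaving out AXL WT hypoxia replicate 3 ended the call in hypoxia (0.34, adjusted p = 0.0519), as did leaving out both replicates 2 and 3 (0.16, adjusted p = 0.258). It was also lost with library size alone (0.27, adjusted p = 0.0649), in the 6 libraries compared (0.39, adjusted p = 0.0624) and with a voom weight per group (0.45, adjusted p = 0.0539).

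The MYC, MAX and MXD genes around Mxi1 were called in both directions. Of 10 tested, 5 were higher and 3 lower in AXL KO than in AXL WT in hypoxia, where 29.9% of all genes were higher and 33.0% lower. In normoxia 4 were higher and 2 lower, against 29.7% and 30.0% of all genes. Myc itself averaged 7.31 ± 1.5 CPM in AXL KO hypoxia and 16.1 ± 1.2 CPM in AXL WT hypoxia, against 67.5 ± 6.9 CPM in AXL KO normoxia and 72.1 ± 10 CPM in AXL WT normoxia (SD, n = 3 libraries each). It fell in hypoxia by 3.21 on the log2 scale in AXL KO (adjusted p = 1.21e-07) and fell by 2.17 in AXL WT (adjusted p = 7.74e-07), while Mxi1 rose. Max, the shared partner, was higher in AXL KO by 1.66 in hypoxia (adjusted p = 2.72e-07) and by 1.24 in normoxia (adjusted p = 2.20e-06). Mlx, which encodes the partner of the glucose-sensing factors MLXIP and MLXIPL, was lower in AXL KO by −0.50 in hypoxia (adjusted p = 0.000930) and −0.57 in normoxia (adjusted p = 0.000328).

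Counted together, 9 of the 10 members passed the filter on low counts. Between AXL KO and AXL WT in hypoxia, 7 of the 9 were called (4 higher, 3 lower), where 63.0% of all genes tested were called (29.9% higher, 33.0% lower). The members called lower were Cox4i1, Cox4i2 and Lonp1, whose losses in other analyses are given above. Cox4i2 passed the filter only through AXL WT hypoxia, so its part in the counts and medians of this paragraph gives no support. With the strict filter, which removed Cox4i2, 6 members were called between the genotypes in hypoxia (4 higher, 2 lower). Over all genes that filter left 3623 called higher and 3932 lower there. For hypoxia in AXL WT it left 8 members called (7 higher, 1 lower), and over all genes 3585 higher and 3713 lower. Without replicates 2 and 3 of AXL WT hypoxia, the median log2 fold change between the genotypes in hypoxia was 0.46 over the members tested. Over all genes it was −0.01 in that fit. In normoxia 7 members were called between AXL KO and AXL WT (6 higher, 1 lower), against 59.7% of all genes (29.7% higher, 30.0% lower). Hypoxia called 7 members in AXL KO (7 higher, 0 lower), against 58.0% of all genes (27.3% higher, 30.6% lower). It called 9 in AXL WT (8 higher, 1 lower), against 59.8% (29.2% higher, 30.7% lower). Groups without overlap were found in 8 of the 9 members for AXL KO against AXL WT in hypoxia (5 higher, 3 lower), against 62.6% of all genes (31.2% higher, 31.3% lower). In normoxia the members without overlap numbered 7 (6 higher, 1 lower), against 79.7% (39.3% higher, 40.4% lower). For hypoxia in AXL KO they numbered 8 (8 higher, 0 lower), against 76.0% (36.4% higher, 39.5% lower), and in AXL WT 9 (8 higher, 1 lower), against 61.4% (28.0% higher, 33.4% lower). Taken in either direction, 7 of the 9 members were called in each genotype comparison, against 63.0% and 59.7% of all genes. By direction, 4 were higher and 3 lower in hypoxia, and 6 higher and 1 lower in normoxia. The calls for hypoxia over normoxia were nearly all higher. Whether these counts differ from the shares of all genes was not tested. The median log2 fold change of the 9 members for hypoxia was 1.16 in AXL KO and 2.11 in AXL WT, against −0.03 and −0.02 over all genes tested. For AXL KO against AXL WT it was 0.38 in hypoxia and 0.60 in normoxia, against −0.04 and −0.03 over all genes.

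The hypoxia responses of the genotypes differed in 6 of the 9 members (1 larger and 5 smaller in AXL KO), where 28.8% of all genes were called (13.5% larger, 15.3% smaller). The 5 were Bnip3, Bnip3l, Higd1a, Fam162a and Cox4i2, and the call of Cox4i2 gives no support for the reason given above. The calls of Bnip3, Bnip3l and Fam162a held in all 21 alternative analyses with the same threshold, and Fam162a was also called against a minimum fold of 2. In these 3 genes AXL KO was higher than AXL WT already in normoxia. That pattern was not particular to them. Of the 8 hypoxia marker genes named above, 7 were also called higher in AXL KO in normoxia, where 29.7% of all genes were. The responses of these markers were smaller in AXL KO in 4 and larger in 1. The 4 comparisons share groups, so a high AXL KO normoxia level enters both the genotype difference in normoxia and the response in AXL KO.

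**Figure D2:**
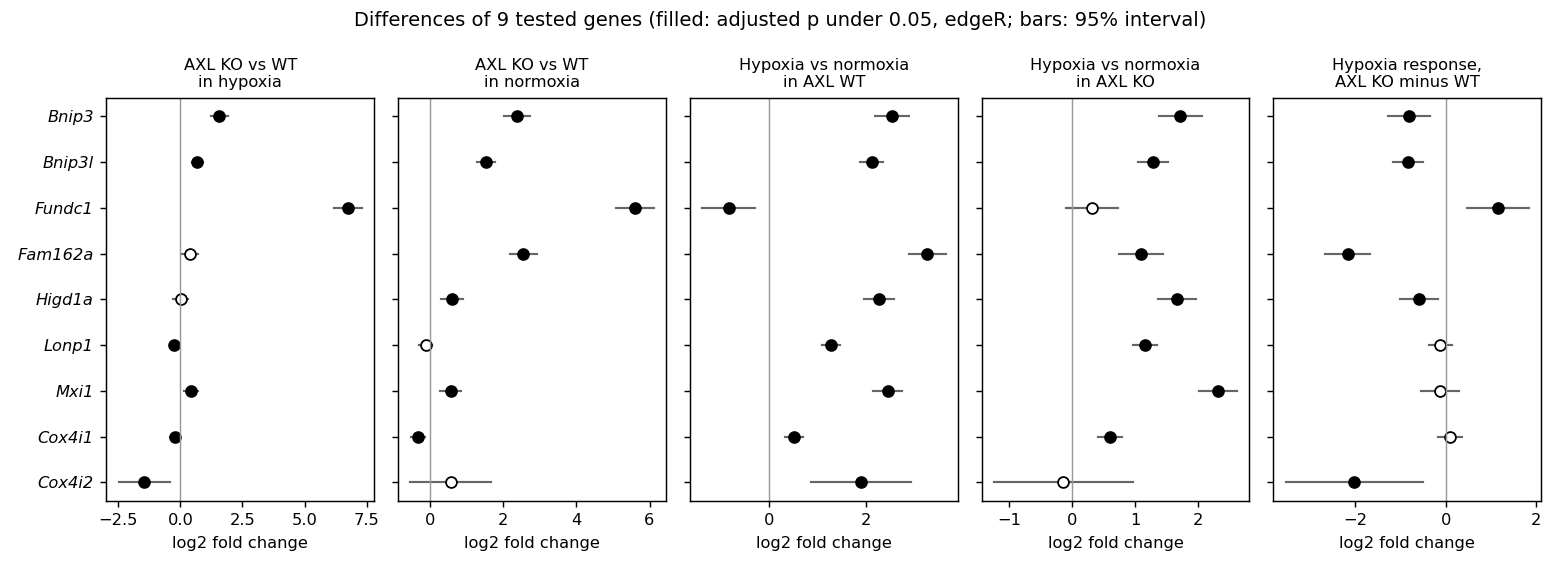
Log2 fold changes (points) with 95% intervals (lines) of the 9 tested members in the 5 comparisons, each panel with its own axis, filled where the edgeR adjusted p is under 0.05. Fundc1 has the largest genotype difference (6.76 in hypoxia), Fam162a the largest hypoxia response (3.26 in AXL WT), and in the right panel Fam162a stands at −2.17 and Cox4i2 at −2.03 with a far wider interval.

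The order of the members by level per kilobase also differed between groups. In AXL KO hypoxia it ran from Fam162a (618 ± 44.2 FPKM) and Bnip3 (353 ± 2.73) to Cox4i1 (262 ± 5.76), Bnip3l (171 ± 2.93) and Lonp1 (166 ± 12.6), of which the libraries of Bnip3l and Lonp1 overlapped. In AXL WT hypoxia it ran from Fam162a (475 ± 89.4 FPKM) to Cox4i1 (306 ± 24.9), Lonp1 (196 ± 6.95), Bnip3 (119 ± 16.7) and Bnip3l (106 ± 11.1), of which Bnip3 and Bnip3l overlapped. In AXL KO normoxia Fam162a (289 ± 56.5 FPKM) and Cox4i1 (173 ± 9.38) stood before Bnip3 (107 ± 24.3), and Lonp1 and Bnip3l overlapped, as did Fundc1, Mxi1 and Higd1a next to each other. In AXL WT normoxia Cox4i1 (216 ± 11.96 FPKM) and Lonp1 (80.7 ± 0.989) came first, and Fam162a (49.5 ± 4.24), Bnip3l (24.5 ± 1.55) and Bnip3 (20.6 ± 1.62) after them. All values are means ± SD of 3 libraries.

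The ubiquitin route and the autophagosome genes showed changes of both signs, in lists chosen with earlier results of these data known. Of 17 autophagosome genes tested, 7 were higher and 4 lower in AXL KO than in AXL WT in hypoxia, and 8 higher and 4 lower in normoxia. Beside this list and those below, 29.9% of all genes were called higher and 33.0% lower in hypoxia. The shares between the genotypes in normoxia were 29.7% and 30.0%. Atg12, a ubiquitin-like conjugating protein, averaged 181 ± 6.7 CPM in AXL KO hypoxia, against 104 ± 10 CPM in AXL WT hypoxia (log2 fold change 0.81, adjusted p = 1.42e-05), and 197 ± 11 CPM in AXL KO normoxia, against 71.1 ± 2.2 CPM in AXL WT normoxia (1.47, adjusted p = 8.89e-08). Atg3, the enzyme that attaches LC3 to lipid, was higher in AXL KO by 0.82 in hypoxia (adjusted p = 2.12e-05) and 1.32 in normoxia (adjusted p = 3.31e-07). Map1lc3a, an LC3 gene whose product binds the receptors above, was higher by 0.69 (adjusted p = 4.18e-05) and 0.77 (adjusted p = 1.42e-05). Gabarapl2, a GABARAP relative, was lower in AXL KO in hypoxia (−1.13, adjusted p = 4.66e-05), as were Rb1cc1, a scaffold of the ULK1 complex (−1.17, adjusted p = 6.08e-05), and Atg9a, a lipid scramblase (−0.84, adjusted p = 2.32e-05). Hypoxia raised 8 and lowered 3 of the 17 in AXL KO, and raised 11 and lowered 1 in AXL WT. Over all genes, for this list and those below, it raised 27.3% and lowered 30.6% in AXL KO, and 29.2% and 30.7% in AXL WT. Map1lc3a rose in both (0.62, adjusted p = 0.000122 in AXL KO, and 0.70, adjusted p = 4.20e-05 in AXL WT).

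Of 13 genes of ubiquitin-dependent mitophagy tested, 5 were higher and 6 lower in AXL KO in hypoxia, and 6 higher and 2 lower in normoxia. Pink1, the kinase that starts this route, averaged 74.5 ± 3.9 CPM in AXL KO normoxia, against 41.2 ± 4.1 CPM in AXL WT normoxia (0.85, adjusted p = 9.21e-05). Vcp, the segregase that extracts ubiquitinated proteins from the outer membrane, was lower in AXL KO by −1.59 in hypoxia (adjusted p = 1.61e-05) and −0.92 in normoxia (adjusted p = 0.000882). The ubiquitin ligase gene March5, whose product also acts on FUNDC1, was lower by −0.45 (adjusted p = 0.00102) and −0.84 (adjusted p = 7.70e-06). Hypoxia raised 3 and lowered 4 of the 13 in AXL KO, and raised 4 and lowered 2 in AXL WT.

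Of 11 other receptors and regulators tested, 5 were higher and 2 lower in AXL KO in hypoxia, and 2 higher and 4 lower in normoxia. Fundc2, the paralog of Fundc1, showed no difference of that size: it averaged 66.8 ± 3.0 CPM in AXL KO hypoxia, against 41.9 ± 5.2 CPM in AXL WT hypoxia (0.67, adjusted p = 0.000294), and 54.2 ± 5.5 CPM in AXL KO normoxia, against 58.7 ± 2.6 CPM in AXL WT normoxia (−0.11, adjusted p = 0.401). Pgam5, the phosphatase that acts on FUNDC1, averaged 30.4 ± 2.5 CPM in AXL KO normoxia, against 59.1 ± 3.3 CPM in AXL WT normoxia (−0.96, adjusted p = 6.17e-05). In hypoxia it averaged 30.2 ± 1.0 CPM in AXL KO and 30.8 ± 5.8 CPM in AXL WT (−0.03, adjusted p = 0.857). Nlrx1, a mitochondrial NOD-like protein with an LC3-binding motif, fell in hypoxia by 2.16 on the log2 scale in AXL KO (adjusted p = 1.77e-06) and fell by 1.71 in AXL WT (adjusted p = 7.67e-06). Hypoxia raised 4 and lowered 3 of the 11 in AXL KO, and raised 2 and lowered 7 in AXL WT. Of 10 fission and fusion genes, 4 were higher and 2 lower in AXL KO in hypoxia, and 0 higher and 1 lower in normoxia. Hypoxia raised 1 and lowered 2 of them in AXL KO, and raised 2 and lowered 7 in AXL WT. Dnm1l, the dynamin-related GTPase of fission, averaged 61.5 ± 4.5 CPM in AXL KO hypoxia, against 124 ± 4.7 CPM in AXL KO normoxia (−1.02, adjusted p = 0.00125), and 49.4 ± 18 CPM in AXL WT hypoxia, against 110 ± 1.7 CPM in AXL WT normoxia (−1.15, adjusted p = 0.000520).

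Of 13 other nuclear subunits of cytochrome c oxidase tested, 2 were higher and 6 lower in AXL KO in hypoxia, where 29.9% of all genes were called higher and 33.0% lower. In normoxia 1 was higher and 6 lower, against 29.7% and 30.0% of all genes. Cox8a averaged 151 ± 3.7 CPM in AXL KO hypoxia, against 245 ± 20 CPM in AXL WT hypoxia (−0.70, adjusted p = 4.72e-05), and 144 ± 12 CPM in AXL KO normoxia, against 215 ± 11 CPM in AXL WT normoxia (−0.58, adjusted p = 0.000194). Ndufa4, the paralog of Ndufa4l2 and itself a subunit of the enzyme, was lower in AXL KO by −1.24 in hypoxia (adjusted p = 1.32e-05) and −1.01 in normoxia (adjusted p = 5.60e-05). It also fell in hypoxia, by −1.18 in AXL KO (adjusted p = 2.72e-05) and −0.94 in AXL WT (adjusted p = 0.000116). Cox7a1, known as the isoform of heart and skeletal muscle, went the other way: it averaged 8.65 ± 0.95 CPM in AXL KO hypoxia, against 1.31 ± 0.78 CPM in AXL WT hypoxia (2.72, adjusted p = 6.10e-05). The 3 muscle markers Ckm, Acta1 and Myh1 summed to 0.176 to 0.426 CPM in AXL KO hypoxia and 1.48 to 2.67 CPM in AXL WT hypoxia. Hypoxia raised 5 and lowered 4 of the 13 in AXL KO, and raised 4 and lowered 2 in AXL WT. Of 16 assembly and supercomplex genes, 2 were higher and 8 lower in AXL KO in hypoxia, and 3 higher and 3 lower in normoxia. Hypoxia raised 4 and lowered 8 of these in AXL KO, and raised 5 and lowered 8 in AXL WT. Higd2a, the paralog of Higd1a, rose in hypoxia by 0.60 in AXL KO (adjusted p = 0.000194) and 0.83 in AXL WT (adjusted p = 1.73e-05).

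Of 13 other mitochondrial proteases and chaperones, hypoxia raised 2 and lowered 6 in AXL KO, where 27.3% of all genes were called higher and 30.6% lower. It raised 3 and lowered 6 in AXL WT, against 29.2% and 30.7% of all genes. Spg7, a subunit of the inner-membrane m-AAA protease, rose by 1.48 in AXL KO (adjusted p = 1.95e-07) and 0.94 in AXL WT (adjusted p = 3.08e-06). Clpx, the unfoldase of the other matrix protease, rose by 0.90 (adjusted p = 6.77e-06) and 0.77 (adjusted p = 1.87e-05), while its protease subunit Clpp was lower by −1.17 (adjusted p = 4.95e-06) and −1.34 (adjusted p = 1.42e-06). Between the genotypes, 2 were higher and 5 lower in AXL KO in hypoxia, and 1 higher and 5 lower in normoxia. Of 12 mitochondrial biogenesis genes, 2 were higher and 3 lower in AXL KO in hypoxia, and 3 higher and 3 lower in normoxia. Hypoxia raised 6 and lowered 4 of these in AXL KO, and raised 3 and lowered 3 in AXL WT. Tfb1m, a methyltransferase of mitochondrial ribosomal RNA, fell by 1.64 on the log2 scale in AXL KO (adjusted p = 0.000224) and fell by 2.26 in AXL WT (adjusted p = 2.04e-05).

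Without AXL WT hypoxia replicates 2 and 3, the list counts for AXL KO against AXL WT in hypoxia moved most for the cytochrome c oxidase assembly genes, to 0 higher and 5 lower of 16. The ubiquitin list then had 4 higher and 4 lower, the autophagosome list 8 and 5, and the nuclear subunits 2 and 5. For hypoxia in AXL WT the autophagosome list had 10 higher and 1 lower, and fission and fusion genes 3 and 6. Among the genes named for AXL KO against AXL WT in hypoxia, the value of Vcp was then −0.98, that of Gabarapl2 −0.68 and that of Rb1cc1 −0.76, and for hypoxia in AXL WT that of Dnm1l was −0.71. The calls given for genes named from these lists held in every alternative analysis with the same threshold that could test them, and single genes were not followed under a minimum fold of 2.

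**Figure D3:**
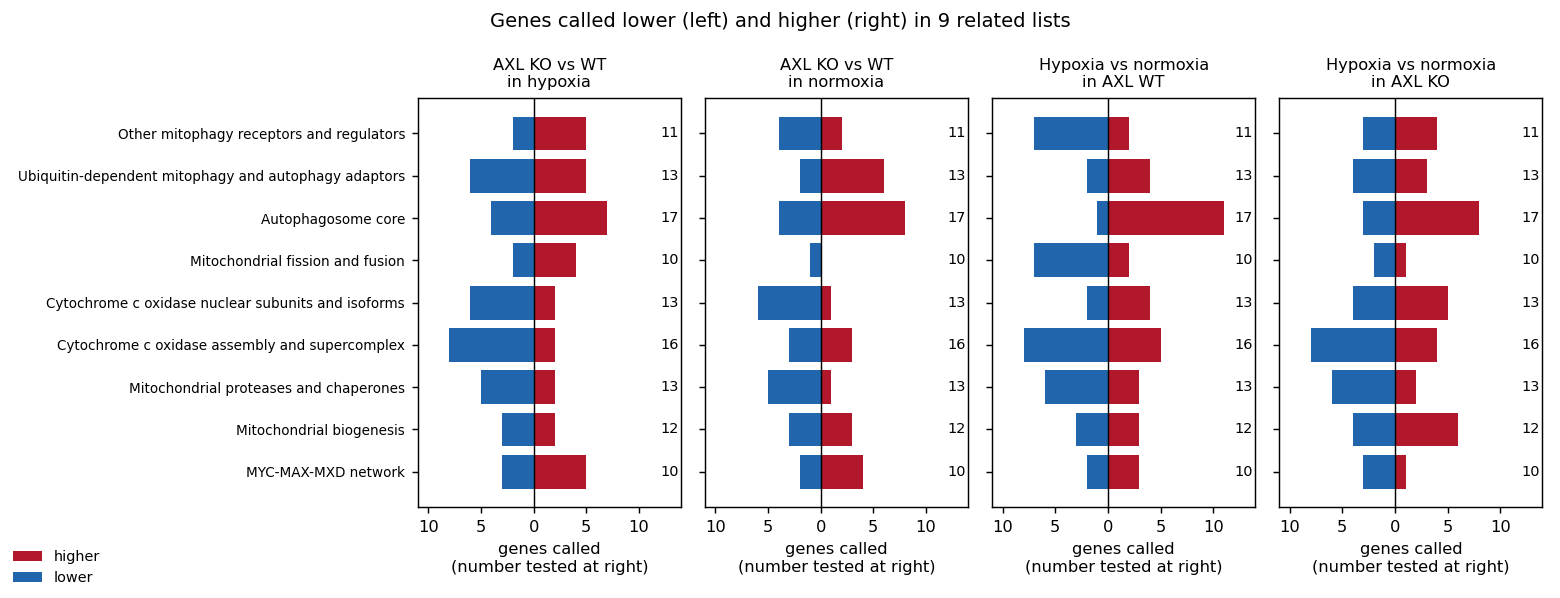
Numbers of genes called lower (bars to the left) and higher (bars to the right) at an edgeR adjusted p under 0.05 in 9 lists around the members, in the 4 comparisons of 2 groups, with the number tested beside each bar. The autophagosome list has 11 higher and 1 lower for hypoxia in AXL WT, and the nuclear cytochrome c oxidase subunits have 2 higher and 6 lower for AXL KO against AXL WT in hypoxia.

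The genes whose profile over the 12 libraries was most like each member were taken from 9079 protein-coding genes with a mean of at least 10 CPM, by Pearson r of log2 CPM. Cox4i2, itself below that level, had a highest r of 0.877, and its genes are not named. Ndufa4l2 did not pass the filter and was not compared. Because the 12 libraries form 4 groups, these correlations describe the order of the groups and carry no p. Bnip3 was followed most closely by Tbl2 (r = 0.993), Gprc5b and Lpin1, and Bnip3l by Car12 (r = 0.996), P4ha2 and Adgrl1. Fundc1 was followed by Tspan12 (r = 0.996), Scrn1 and Vkorc1. Higd1a was followed by Phospho1 (r = 0.996), Slc2a1, the glucose transporter gene, and Meis2, and Fam162a by Ncam1 (r = 0.993), Zfp36l1 and Slco3a1. Cox4i1 was followed by Elof1 (r = 0.989), Fau and Cdc37, Lonp1 by Zfp335 (r = 0.993), Isg20 and Gtf2e2, and Mxi1 by Dok4 (r = 0.997), Insig2 and Sesn1. No gene was named for 2 members.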

How the data were processed

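RNA-seq counts of 12 libraries were analysed. Per the file headers, the deposited values are counts per gene of Ensembl release 93 (GRCm38), made with featureCounts 1.6.0, reverse stranded, so genes on opposite strands are counted apart. The submitters' processing notes name FastQC 0.11.5, STAR 2.5.1b, featureCounts 1.4.6 and DESeq2 1.12.3. Symbols of 54165 of 54232 genes came from GENCODE M21, and gene coordinates are those of the deposited files. The counts went into edgeR 4.0.16 under R 4.3.3. Its filterByExpr kept 16767 genes and removed 37465, libraries were scaled by TMM, and a robust quasi-likelihood model estimated a mean for each group (8 residual degrees of freedom; the common dispersion, as a biological coefficient of variation, was 0.201). Calls needed an adjusted p under 0.05 (Benjamini-Hochberg, over every gene tested). Values after ± are standard errors of log2 fold changes, and SDs of 3 libraries for levels. CPM and FPKM were computed from the counts with TMM scaling, FPKM with the exon length in the deposited files. Ratios had 0.5 added to each count. The scripts were tested on simulated data with equal spread in every group. That test does not cover the uneven spread or the many calls of these data.

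The members and the gene lists were chosen with earlier results of these data known. All 10 members are named. Per list and comparison, up to 3 higher and 3 lower genes of smallest adjusted p could be named, with their values elsewhere, and some of these are given. Fundc2, Ndufa4, Gabarapl2, Rb1cc1, Higd2a and the neighbours of Fundc1 include genes chosen after their values were seen. The analysis was repeated with RLE size factors, with unscaled library sizes, without a filter and with a strict one (at least 5 CPM in 3 or more libraries). It was repeated in DESeq2 1.42.0 and limma-voom (limma 3.58.1), with a replicate block, on the 6 libraries of each comparison, against a fold of 2, and leaving out single libraries. A voom weight per group and leaving out AXL WT hypoxia replicates 2 and 3 were chosen after seeing the data. Counting intervals cover counting error only. The result of 1 gene of the lists is not reported here.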

Additional observations from a re-analysis of the deposited data

Results flagged for a closer look

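The hypoxia responses of the genotypes (1% against 21% oxygen, AXL KO minus AXL WT, 3 libraries per group) differed by a test of the difference itself in 6 of the 9 members tested (edgeR, adjusted p under 0.05). Of all genes tested, 28.8% were called (13.5% larger and 15.3% smaller in AXL KO). The log2 difference was −0.81 for Bnip3 (adjusted p = 0.0154), −0.83 for Bnip3l (adjusted p = 0.00225), −0.59 for Higd1a (adjusted p = 0.0365), −2.17 for Fam162a (adjusted p = 5.96e-05) and −2.03 for Cox4i2 (adjusted p = 0.0469). For Fundc1 it was 1.16 (adjusted p = 0.0170), with AXL WT values that rest on 17 to 70 counts per library. The call of Higd1a was lost in 13 of 21 alternatives and that of Fundc1 in 2 of 21. The values of Cox4i2 rest on 3 to 23 counts per library. It passed the low-count filter only through AXL WT hypoxia, where it was highest, and its call was lost in 15 of 20 alternatives, so it adds no support to the count.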

How the results depend on the processing

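The calls of Bnip3, Bnip3l and Fam162a for the difference between the hypoxia responses, and the genotype calls of Bnip3, Bnip3l and Fundc1 at both oxygen levels, held in every alternative with the same threshold. Against a minimum fold of 2, Fam162a held for the difference between the responses, Bnip3 and Fundc1 between AXL KO and AXL WT in hypoxia, and Bnip3, Bnip3l, Fundc1 and Fam162a in normoxia. The number of members called between AXL KO and AXL WT in hypoxia (7) was 4 in the 6 compared libraries alone and 2 with a minimum fold of 2. It was 3 with a voom weight per group and 4 to 8 with each library left out in turn. With a minimum fold of 2 it was 4 in normoxia (7 before) and 4 for hypoxia in AXL KO (7 before). The number of responses that differed (6) was 1 with a minimum fold of 2, 3 with a voom weight per group, and 3 to 6 with each library left out. The cause of these losses was not tested, apart from the stricter threshold of the minimum fold. The log2 difference of Higd1a in hypoxia reversed, to −0.028 with RLE size factors and with DESeq2, −0.15 with library size alone, −0.075 with the strict filter and −0.040 in the 6 libraries, and ran from −0.10 to 0.13 with each library left out. Without AXL WT hypoxia replicates 2 and 3 it was 0.27. With each library left out, Cox4i2 for hypoxia in AXL KO ran from −0.68 to 0.20, and the difference between the responses from −0.021 to 0.15 for Cox4i1 and from −0.24 to 0.037 for Mxi1. Over all genes, a minimum fold of 2 left 4120, 4084, 3432, 2969 and 933 calls, against 10557, 10009, 10035, 9719 and 4830, for AXL KO against AXL WT in hypoxia and in normoxia, for hypoxia in AXL WT and in AXL KO, and for the difference between the responses. The last count reached 8417 without AXL WT hypoxia replicate 1. In the 6 libraries of each comparison alone, the first 4 counts were 7696, 12610, 7600 and 11786. A voom weight per group left 8204 calls in the first comparison and 4829 in the last. With each library left out, these counts ran from 9688 to 12564 and from 3582 to 8417. Library size alone moved the all-gene median (log2) to −0.21, −0.29, −0.32 and −0.23 in the first 4 comparisons (−0.04, −0.03, −0.02 and −0.03 with TMM), and the share of calls that were higher to 35.8% in normoxia, 33.2% for hypoxia in AXL WT and 36.0% for hypoxia in AXL KO (49.7%, 48.8% and 47.1% with TMM). The members kept their direction under it, other than Higd1a in hypoxia. With it, Lonp1 was called lower in AXL KO in normoxia (−0.37, adjusted p = 0.00394).

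Same-numbered libraries of different groups showed little shared deviation (r of their deviations −0.06 to 0.14, median 0.01, over 18 pairs). For unlike numbers r was −0.26 to 0.22, median −0.02, over 36 pairs. Of the 12 libraries, 5 correlated best with their own number. No pairing by number was thus seen, but such correlations cannot show that the samples were unpaired, and the labels do not give the origin of the replicates. With the replicate number as a block, 8 members were called between AXL KO and AXL WT in hypoxia, 7 in normoxia, 9 for hypoxia in AXL WT, 7 for hypoxia in AXL KO and 5 for the difference between the responses. Over all 16767 genes tested, the calls with that block numbered 10425, 9915, 9875, 9582 and 4521 in the same order. Counts limit Cox4i2, Ndufa4l2 and Fundc1 in AXL WT cells, where a total of 0 allows up to 3 counts.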
